A study of Mus musculus with 24 samples.

Results

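The 9 genes described here, Ppbp, Pf4, Itga2b, Itgb3, Gp1bb, Gp9, Tubb1, Treml1 and Clec1b, are transcribed in megakaryocytes and carried over into platelets. They were chosen by their levels in these same libraries: all 9 were known to be lower in WT and Y than in ct peripheral blood mononuclear cells (PBMCs), and to be detected on the surface of monocytes and of hematopoietic stem and progenitor cells (HSPCs). Their levels are therefore given as a description and without a test. All 9 were found by symbol among 55335 genes of the PBMC files and among 56883 gene names of the surface tables.

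For murine PBMCs, 9 total RNA libraries were sequenced, 3 under each treatment label. These labels read ct, WT and Y and are not spelled out further, and the same samples carry tissue blood and genotype wild type throughout, without a strain or an age. Surface RNA was profiled in 15 libraries from C57BL/6 mice of genotype WT, 3 each from B cells, T cells and natural killer (NK) cells of the spleen and from HSPCs and monocytes of the bone marrow, all by AMOUR. In this assay intact cells are fixed and held on concanavalin A beads, and RNA accessible from outside is copied on the cell by in situ T7 amplification. HSPCs were enriched by depletion of lineage-positive cells, so that they are a mixture of progenitors. T cells were isolated with a kit for CD8 T cells. Ages are not given for the surface samples either, and no label says whether replicates came from separate animals. The paper calls the murine surface replicates independent and biological, without saying whether each was a separate animal. P-values therefore measure only the spread between these libraries.

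Platelets are anucleate fragments shed by megakaryocytes, and they keep messenger RNA made before they were released. They store chemokines in alpha granules, bind fibrinogen through the integrin αIIbβ3 and von Willebrand factor through the GPIb-IX-V complex, and hold their disc shape with a ring of β1-tubulin. In blood, platelets often adhere to leukocytes and can remain in a mononuclear cell preparation, and in bone marrow megakaryocyte progenitors are part of the progenitor pool.

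Each of the 9 gene identifiers in the PBMC files matched the GENCODE M21 annotation of GRCm38. The chemokine genes lie side by side on the plus strand, Ppbp at chr5:90768518-90770063 and Pf4 at chr5:90772435-90773383, with 2371 bases between them. Itga2b (chr11:102453297-102470122, minus strand) and Itgb3 (chr11:104608000-104670476, plus strand) are on the same chromosome. Gp9 is at chr6:87778072-87779768, Clec1b at chr6:129397297-129409335, Tubb1 at chr2:174450695-174457882 and Treml1 at chr17:48359916-48367176, all on the plus strand. Gp1bb (chr16:18620317-18622403, minus strand) overlaps Sept5 and Gm49601, Clec1b overlaps Clec9a and Itga2b overlaps Gm23563, so that reads of these 3 genes could have been split between neighbours. Values are for whole genes, and no single exon or intron was measured.

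The 250 bases before the transcription start, taken from RefSeq on GRCm38.p6, are shown for the adjacent chemokine genes and for the 2 genes whose window held GATAA, since all 9 genes were lower in WT than in ct PBMCs. A pair of short motifs was searched on both strands. The first was GATAA, which reads TTATC on the other strand and holds the core bound by GATA factors such as GATA1. The second was GGAAG, or CTTCC on the other strand, which holds the core bound by ETS factors such as FLI1. A match of one can share only its end base with a match of the other. Both families direct megakaryocyte transcription, and capitals mark every match.
Ppbp (chr5:90768268-90768517, plus strand): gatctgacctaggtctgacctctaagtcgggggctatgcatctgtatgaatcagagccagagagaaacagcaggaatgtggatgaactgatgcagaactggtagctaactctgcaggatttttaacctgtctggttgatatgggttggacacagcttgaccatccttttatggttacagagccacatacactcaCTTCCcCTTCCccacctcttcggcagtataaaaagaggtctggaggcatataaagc
Pf4 (chr5:90772185-90772434, plus strand): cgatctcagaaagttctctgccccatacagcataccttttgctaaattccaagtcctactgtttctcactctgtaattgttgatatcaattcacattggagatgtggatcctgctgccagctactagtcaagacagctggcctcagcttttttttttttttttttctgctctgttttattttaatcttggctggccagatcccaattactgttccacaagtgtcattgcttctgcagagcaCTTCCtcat
Gp9 (chr6:87777820-87778069, plus strand): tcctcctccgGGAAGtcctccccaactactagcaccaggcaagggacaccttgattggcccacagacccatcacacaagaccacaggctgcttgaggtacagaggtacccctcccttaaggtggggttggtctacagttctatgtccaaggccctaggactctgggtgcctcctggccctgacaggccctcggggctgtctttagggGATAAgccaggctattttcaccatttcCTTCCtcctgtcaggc
Clec1b (chr6:129397047-129397296, plus strand): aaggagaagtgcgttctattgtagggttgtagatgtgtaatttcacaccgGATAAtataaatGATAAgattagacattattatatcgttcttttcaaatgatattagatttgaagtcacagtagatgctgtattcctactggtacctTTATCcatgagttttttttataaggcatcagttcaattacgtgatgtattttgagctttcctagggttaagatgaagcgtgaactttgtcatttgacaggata
Of the 8 members with an entry (Itgb3 was the other), 2 had GATAA, Clec1b with 3 matches and Gp9 with 1, against 22.6% of 32851 promoters of this length. GGAAG was found in 7 of the 8, in all but Clec1b, against 64.1% of those promoters. By the M21 annotation the window of Itga2b overlapped an exon of Itga2b itself and that of Gp1bb an exon of Sept5, so that these windows are not intergenic. Only Gp9 had both. With 8 promoters, no test was run on these shares, and a match describes letters, not a bound site.

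In PBMCs, all 9 genes were highest in ct, and on counts per 1000000 reads (CPM, with TMM-normalised library sizes) 9 of 9 had their lowest mean in WT. The summed CPM of the 9 genes was 642, 681 and 682 in the 3 ct libraries, 435, 405 and 458 for WT, and 523, 515 and 504 for Y. The 3 groups did not overlap in this sum of CPM, which averaged 669 ± 23.1 for ct, 432 ± 26.6 for WT and 514 ± 9.80 for Y (SD, n = 3 each). Under another scaling, given below, WT and Y did overlap. On the log2 scale the means of the CPM sums differed by -0.63 between WT and ct, by -0.38 between Y and ct, and by 0.25 between Y and WT. Comparisons with ct share the ct libraries, so that the first and second of these differences are not independent. In bulk RNA, fewer cells or platelets and less RNA in each cannot be told apart.

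**Figure D1:**
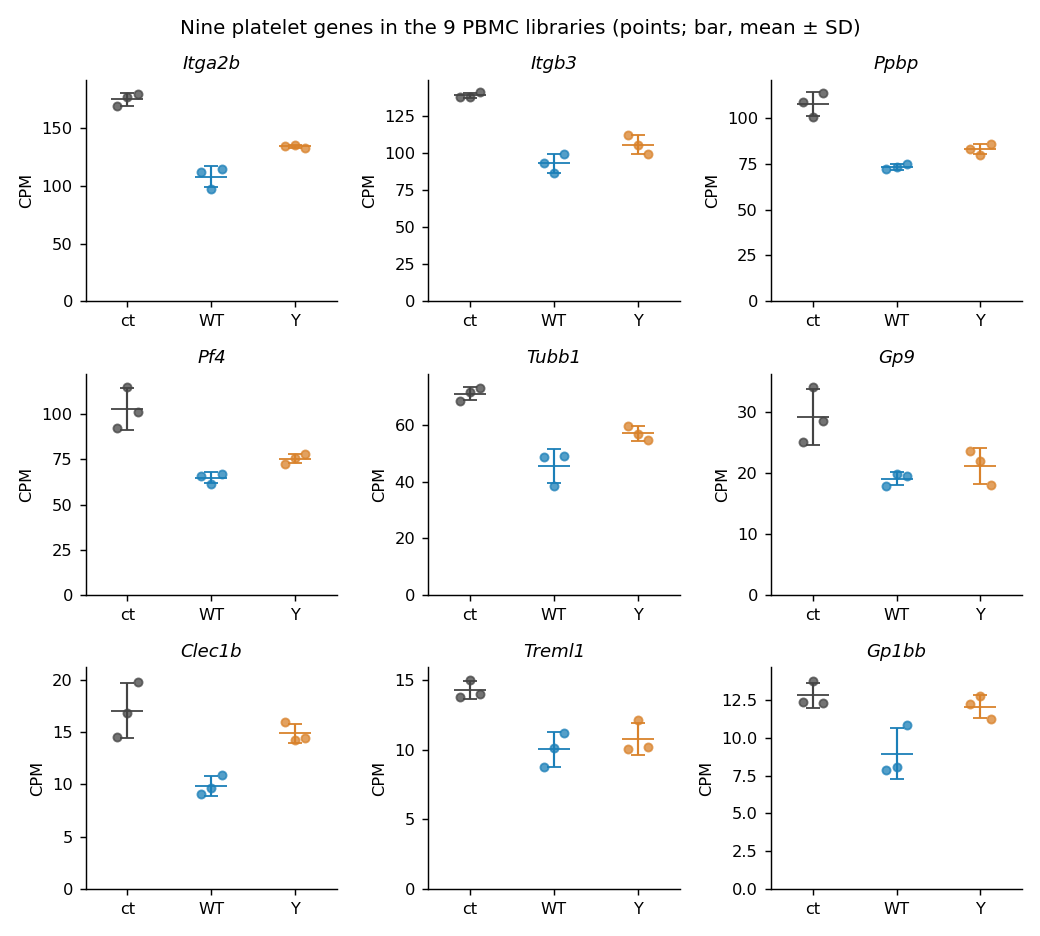
CPM (TMM-normalised, linear axis from 0) of each of the 9 platelet genes in every PBMC library (points), with the mean ± SD of the 3 libraries of ct, WT and Y. In each panel the 3 WT points lie below the 3 ct points. The Y points lie between these groups for Itga2b, Itgb3, Ppbp, Pf4 and Tubb1, and overlap a neighbouring group for the other 4 genes.

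The library totals behind these values ranged from 4686426 to 9055797 expected counts, the lowest in Y replicate 1. The ribosomal gene CT010467.1 alone accounted for 50.5% to 57.0% of each total. Counts of the 9 genes ran from 46 for Treml1 in Y replicate 1 (exact Poisson 95% interval 33.7 to 61.4) to 1509 for Itga2b in ct replicate 3 (1430.0 to 1590.0). These intervals cover counting error only.

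Ppbp encodes pro-platelet basic protein, the precursor of the neutrophil-attracting chemokine CXCL7, and Pf4 encodes platelet factor 4 (CXCL4). Ppbp was at 109, 100 and 114 CPM in ct, at 72.0, 73.2 and 74.9 in WT, and at 83.1, 80.0 and 85.6 in Y. Pf4 was at 92.2, 115 and 101 CPM in ct, at 66.0, 61.3 and 67.0 in WT, and at 72.4, 75.9 and 77.7 in Y. For both chemokines the ct libraries were the highest, the WT libraries the lowest, and no groups overlapped. The fitted log2 fold change between WT and ct was -0.55 ± 0.08 (SE) for Ppbp and -0.66 ± 0.09 for Pf4, and between Y and ct it was -0.38 ± 0.08 and -0.44 ± 0.09.

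Itga2b and Itgb3 encode the αIIb and β3 chains of the fibrinogen receptor. Itga2b, the member with the most reads, was at 169, 177 and 179 CPM in ct, at 111, 97.3 and 115 in WT, and at 134, 136 and 133 in Y. Itgb3 was at 138, 138 and 141 CPM in ct, at 93.4, 86.5 and 99.4 in WT, and at 112, 105 and 99.6 in Y. The groups were apart for Itga2b, and for Itgb3 the highest WT library lay just under the lowest Y library. Itga2b differed by -0.70 ± 0.09 between WT and ct and by -0.38 ± 0.09 between Y and ct (log2 fold change ± SE), and Itgb3 by -0.58 ± 0.09 and -0.40 ± 0.09.

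Gp1bb and Gp9 encode GPIbβ and GPIX, subunits of the von Willebrand factor receptor. Gp9 was at 25.0, 34.01 and 28.5 CPM in ct, at 17.8, 19.8 and 19.5 in WT, and at 23.6, 21.9 and 17.9 in Y. Gp1bb was at 12.4, 13.8 and 12.3 CPM in ct, at 7.85, 8.11 and 10.9 in WT, and at 12.2, 12.8 and 11.2 in Y. Gp9 was therefore below ct in both other groups, with WT and Y overlapping, whereas the Y libraries of Gp1bb overlapped those of ct. The log2 fold change of Gp1bb was -0.53 ± 0.13 in WT against ct but -0.09 ± 0.13 in Y against ct, the smallest of the 9 genes there, and that of Gp9 was -0.61 ± 0.12 and -0.47 ± 0.12.

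Tubb1 encodes the β1-tubulin of the marginal band. It was at 68.5, 71.6 and 73.1 CPM in ct, at 48.9, 38.6 and 49.1 in WT, and at 59.8, 56.7 and 54.6 in Y, without overlap between the groups. Its log2 fold change was -0.64 ± 0.10 in WT and -0.32 ± 0.10 in Y against ct (SE).

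Treml1 encodes TLT-1, a receptor of alpha granules that reaches the membrane on activation, and Clec1b encodes CLEC-2, the platelet receptor for podoplanin. Treml1 was at 13.8, 14.98 and 13.997 CPM in ct, at 8.73, 10.1 and 11.2 in WT, and at 10.04, 12.1 and 10.2 in Y. Clec1b was at 14.5, 16.8 and 19.8 CPM in ct, at 9.05, 9.63 and 10.9 in WT, and at 15.9, 14.2 and 14.5 in Y. Treml1 was below ct in both groups, with WT and Y overlapping. Clec1b had the largest difference of the 9 between WT and ct (-0.80 ± 0.13, log2 fold change ± SE), but its Y libraries overlapped ct (-0.21 ± 0.12) and lay above every WT library (0.59 ± 0.13).

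Over the members, the log2 fold change between WT and ct ranged from -0.80 to -0.52, with a median of -0.61 against 0.00 over the 11635 genes that passed the expression filter. All 9 members passed that filter. All 3 WT libraries lay below all 3 ct libraries for 9 of 9 members, whereas this held for 8.62% of genes tested (and the reverse for 7.62%). Between Y and ct the median was -0.38 and 7 of 9 members were apart, against 7.55% of genes (5.7% in the other direction). Between Y and WT the median was 0.22, and all 3 Y libraries lay above all 3 WT libraries for 7 of 9 members, against 8.54% of genes (8.75% in the other direction). On the authors' deposited scaling, described next, this held only for Gp1bb, Tubb1 and Clec1b. Since these contrasts were known when the genes were chosen, nothing is read from the counts of members.

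The size of the step between Y and WT depended on the scaling. On the deposited transcripts per 1000000 (TPM), the median of all genes tested moved by -0.17 on the log2 scale between Y and WT and by -0.16 between Y and ct, and Gp9 and Treml1 were then lower in Y than in WT by 0.02 and 0.07 on that scale, the other 7 members still having higher means. In TPM, WT replicate 2 exceeded every Y library for Ppbp, Pf4 and Itgb3, and WT and Y overlapped in the sum of the 9 genes. With library totals in place of TMM the median of all genes between Y and WT was 0.11, and 9 of 9 members were higher in Y. Against ct, all 9 members were lower in WT and in Y under each of the 4 scalings tried.

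The largest share of the 9 genes was that of Itga2b in each group. It held 26.2% ± 0.18 of their summed CPM in ct, 24.9% ± 0.80 in WT and 26.1% ± 0.40 in Y (SD, n = 3). The 3 smallest shares were those of Clec1b, Gp1bb and Treml1, with Clec1b at 2.54% ± 0.33 in ct, 2.28% ± 0.17 in WT and 2.89% ± 0.14 in Y, Gp1bb at 1.92% ± 0.11, 2.06% ± 0.29 and 2.35% ± 0.13, and Treml1 at 2.13% ± 0.075, 2.32% ± 0.27 and 2.10% ± 0.23. The ratio of Ppbp to Pf4, both in TPM, was between 0.402 and 0.548 over the 9 libraries. Per length, in deposited TPM, Pf4 was the highest member in ct (63.5 ± 4.92, SD, n = 3), followed by Ppbp (30.6 ± 3.28), Itga2b (17.4 ± 0.96), Tubb1 (15.1 ± 0.90), Gp9 (10.4 ± 1.27), Itgb3 (6.75 ± 0.60), Clec1b (4.81 ± 0.40), Treml1 (3.54 ± 0.31) and Gp1bb (3.44 ± 0.34). Only Treml1 and Gp1bb, neighbours in this order, overlapped in ct. The first 7 kept these places in WT and Y, where Clec1b overlapped Treml1 in WT and Gp1bb stood above Treml1 in Y. Over the 36 pairs of members, Pearson's r of log2 CPM across the 9 libraries ran from 0.691 to 0.984 with a median of 0.859, a description of libraries that share their group differences.

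A list of 40 other platelet genes, written from textbook knowledge with earlier results of these data known, was counted beside the members. Of these, 35 passed the expression filter. Between WT and ct, edgeR's quasi-likelihood test with Benjamini-Hochberg adjustment over all genes called 19 of the 35 lower and 0 higher (0 also at an unadjusted p under 0.05 and with DESeq2), against 1.6% of genes tested called lower and 0.765% called higher. DESeq2 called 13 lower, against 122 of all 8236 genes it tested. The median log2 fold change of the list was -0.57, close to that of the 9 members.

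By role, edgeR called lower 8 of 17 tested receptors and surface proteins, 5 of 6 granule or secreted proteins and 6 of 12 signalling, enzyme or cytoskeletal genes. Called or not, 33 of the 35 genes had a log2 fold change below 0 and 2 above. Among the largest falls of the genes called were those of P2ry1, an ADP receptor (-0.92 ± 0.17, adjusted p = 0.00603), and Mmrn1, the alpha granule protein multimerin 1 (-0.79 ± 0.09, adjusted p = 0.000215). Close to them were Slc6a4, the transporter that takes serotonin up into platelets (-0.78 ± 0.11, adjusted p = 0.00100), and Alox12, platelet 12-lipoxygenase (-0.74 ± 0.08, adjusted p = 0.000215). Each is a log2 fold change ± SE from edgeR. Mmrn1 was at 34.7, 33.0 and 36.7 CPM in ct and at 20.2, 18.6 and 21.6 in WT, and Alox12 was at 52.6, 50.3 and 53.6 in ct and at 33.2, 29.6 and 31.1 in WT. For both genes each WT library lay below every ct library.

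Between Y and ct, 3 of the 35 genes were called lower by edgeR and 0 higher (0 at an unadjusted p under 0.05, 0 with DESeq2), against 0.438% and 0.266% of genes tested, while 21 were lower at an unadjusted p under 0.05. They included Clu, the secreted chaperone clusterin (-0.46 ± 0.10, adjusted p = 0.0333), and Alox12 (-0.36 ± 0.08, adjusted p = 0.0491), as log2 fold change ± SE. Neither of these held under every alternative run, Alox12 being lost with each of the 9 libraries left out in turn and Clu with 7 of them. The median of the list was -0.31.

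Between Y and WT, edgeR called 2 of the 35 higher, Slc6a4 (0.54 ± 0.12, adjusted p = 0.0302) and Alox12 (0.37 ± 0.08, adjusted p = 0.0375), and 0 lower (0 at an unadjusted p under 0.05), against 0.438% and 0.817% of genes tested. DESeq2 called 0 in either direction, with 7 higher at an unadjusted p under 0.05, and leaving out any single WT or Y library ended 1 or both of the calls that had been made. Slc6a4 was at 9.49, 10.4 and 10.6 CPM in WT and at 16.1, 15.6 and 12.9 in Y. Its groups did not overlap.

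**Figure D2:**
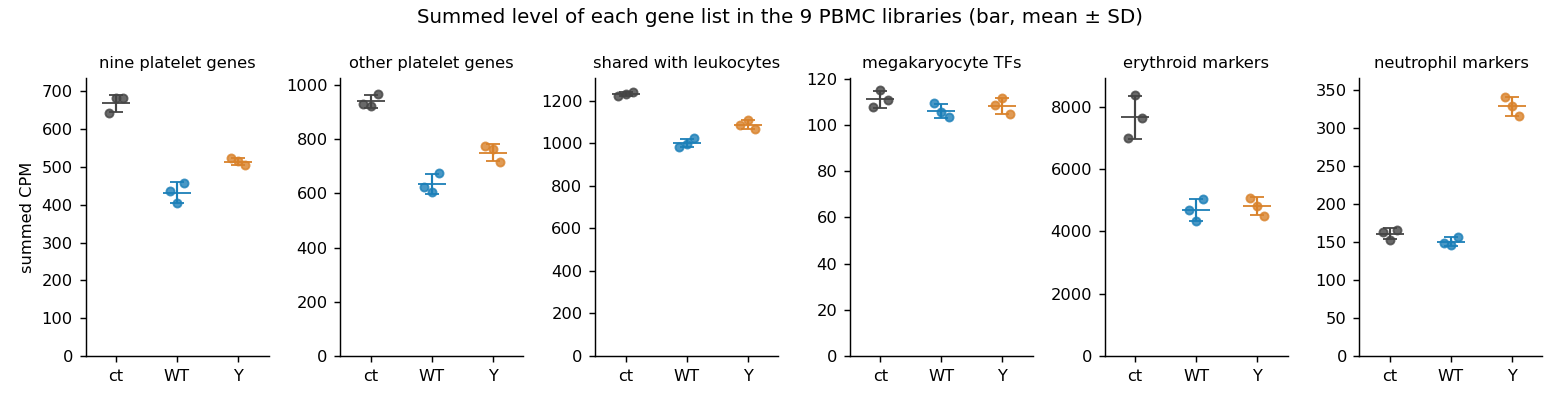
Summed CPM (linear axis from 0) of the 9 platelet genes and of 5 other lists in each PBMC library (points), with the mean ± SD of the 3 libraries of ct, WT and Y. The platelet lists and the erythroid markers are lower in WT and Y than in ct, the transcription factors lie between 103 and 115 CPM in all 9 libraries, and the neutrophil markers are highest in Y.

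Genes of the megakaryocyte lineage that other blood cells share were counted in the same way. Of 8 megakaryocyte transcription factors, 7 passed the filter, and edgeR and DESeq2 called 0 of these in any of the 3 contrasts, with 3, 0 and 1 at an unadjusted p under 0.05 by edgeR in WT against ct, Y against ct and Y against WT. Their summed CPM was 111 ± 3.65 in ct, 106 ± 3.07 in WT and 108 ± 3.43 in Y (SD, n = 3), of which Runx1 and Fli1, which leukocytes also transcribe, made up the larger part (39.4 and 29.9 CPM in ct). Gata1 encodes a factor that megakaryocytes and red cell precursors share, and it and the other factors named here were picked out after their values were seen. Gata1 was at 5.71, 7.79 and 5.58 CPM in ct and at 4.04, 3.42 and 3.82 in WT, with a log2 fold change of -0.74 ± 0.19 and an adjusted p of 0.0516 by edgeR. Gfi1b (-0.80 ± 0.34, adjusted p = 0.357) and Tal1 (-0.57 ± 0.17, adjusted p = 0.116, edgeR) had log2 fold changes of similar size, with each WT library below every ct library, and did not pass the test. The other tested factors did not follow them in WT against ct, with Nfe2 at -0.20, Zfpm1 at 0.095, Fli1 at 0.084 and Runx1 at 0.052. Over the 7 factors 4 were below 0 and 3 above, with a median of -0.20. Runx1 was between 33.4 and 41.7 CPM in the 9 libraries. Of 16 platelet genes that leukocytes share, edgeR called 7 lower and 0 higher in WT than in ct, against 1.6% and 0.765% of genes tested. The median log2 fold change of the list was -0.31. Between Y and ct edgeR called 0 of the 16, and DESeq2 called 1 lower. Thbs1, which encodes the granule protein thrombospondin 1, had the largest of the falls in WT (-0.93 ± 0.09, adjusted p = 0.000167, edgeR). It and Rgs18 were called higher in Y than in WT (0.55 ± 0.09, adjusted p = 0.00403, and 0.65 ± 0.10, adjusted p = 0.00349, edgeR), against 0.438% of genes tested.

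Markers of several other cell types moved with the groups. The 9 erythroid markers summed to between 6989 and 8375 CPM in ct, between 4341 and 5031 in WT and between 4508 and 5087 in Y. By edgeR 8 of them were called lower in WT and 7 lower in Y than in ct, against 1.6% and 0.438% of genes tested. Their medians were -0.78 and -0.66. In CPM, WT and Y overlapped in this sum but not in that of the 9 platelet genes. In TPM the platelet sums of WT and Y overlapped too. The 11 neutrophil markers summed to between 153 and 166 CPM in ct, between 146 and 157 in WT and between 316 and 342 in Y, where 8 were called higher than in ct (0.266% of genes tested). The near-equal sums of ct and WT held opposite calls by edgeR, with Ngp (1.31 ± 0.19, adjusted p = 0.00118) and Ltf (1.01 ± 0.18, adjusted p = 0.00452) higher in WT and S100a8 (-0.71 ± 0.10, adjusted p = 0.000821) and S100a9 (-0.41 ± 0.10, adjusted p = 0.0342) lower (log2 fold change ± SE). The 6 NK cell markers summed to between 47.2 and 50.4 CPM in WT, above ct (36.6 to 38.2) and Y (38.0 to 40.4), and edgeR called Klrb1c and Ncr1 higher in WT than in ct. The 8 monocyte markers summed to between 313 and 335 CPM in WT, above ct (282 to 310.2) and Y (266 to 295), with Ly6c2 called higher in WT than in ct and Ly6c2 and Csf1r lower in Y than in WT. B cell markers summed to between 225 and 232 CPM in WT, above ct (209 to 220.4) and Y (210.4 to 219), with 0 of 6 called by edgeR in WT against ct (0 at an unadjusted p under 0.05). T cell markers summed to between 180.0 and 187 CPM in WT, below Y (190.4 to 201), with ct (181 to 203) overlapping both. Markers of HSPCs (at most 2.61 CPM) and of endothelium (at most 2.55 CPM) were near 0. The part of the erythroid, neutrophil, NK cell, monocyte and B cell differences in the platelet result was not tested.

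**Figure D3:**
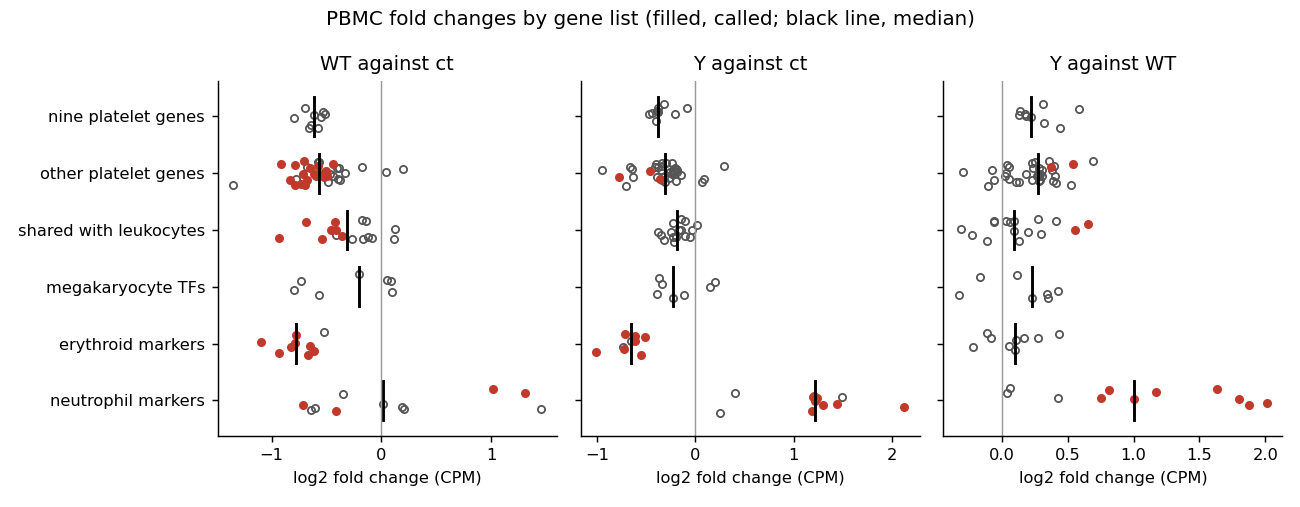
Log2 fold change of each gene that passed the filter, by list, for WT against ct, Y against ct and Y against WT (circles, filled where edgeR called the gene, with the 9 chosen genes left untested and open; black line, median of the list). The 9 platelet genes and the 40 other platelet genes have medians of -0.61 and -0.57 in WT against ct, of -0.38 and -0.31 in Y against ct, and of 0.22 and 0.27 in Y against WT.

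The 10 genes whose log2 CPM over the 9 PBMC libraries was most like the mean z-score of the members were Mkrn1 (Pearson's r = 0.996), Alas2 (0.988), Fhl1 (0.986), Tsc22d1 (0.985), Aldh1a1 (0.976), Slc25a37 (0.976), Ube2o (0.975), Tmem140 (0.975), Parvb (0.974) and Vwf (0.974). Of these, Alas2 was on the erythroid list and Vwf on the list of other platelet genes. The r values describe 9 libraries in 3 groups, and over all genes tested the median r was -0.01.

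On cell surfaces, the order of the cell types turned on the scale. In TPM, monocytes had the highest sum of the 9 genes (150.0 ± 29.8, SD, n = 3 libraries per cell type), followed by HSPCs (34.9 ± 10.05) and NK cells (10.3 ± 2.87), while B cells (1.05 ± 0.07) and T cells (0.61 ± 0.37) were near 0. Protein-coding transcripts held 16.9% to 18.1% of the TPM of the monocyte libraries but 0.645% to 2.96% of the others, most of whose TPM lies in non-coding RNA. On a second scale each value was divided by the TPM of all protein-coding transcripts of its library and multiplied by 1000000 (ppm of protein-coding TPM). Here HSPCs had the highest sum (2211 ± 130.0), followed by monocytes (850 ± 146) and NK cells (451 ± 32.2). T cells were at 50.7 ± 22.8 and B cells at 44.4 ± 6.08. These sums count all transcripts of the 9 genes, of whose TPM 37.9% in T cells and 67.4% in B cells was on protein-coding transcripts (0.230 and 0.709 TPM). The B and T cell libraries overlapped in ppm of protein-coding TPM but not in TPM, and no order is read between them. HSPCs were thus below monocytes in TPM (24 to 43 against 116 to 171) and above them in ppm of protein-coding TPM (2073 to 2331 against 685 to 963), without overlap on either scale. Monocyte libraries were sequenced on another platform than the other 4 cell types and their table lists other transcripts, so that platform and cell type cannot be told apart for monocytes. The depth of the surface libraries is unknown.

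**Figure D4:**
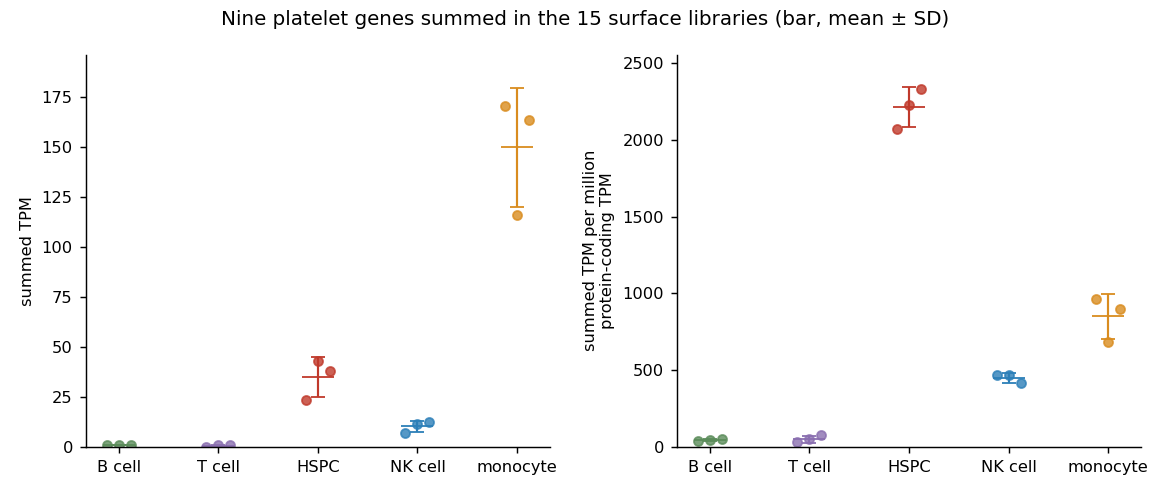
Summed level of the 9 platelet genes in each surface library (points), with the mean ± SD of 3 libraries per cell type, in TPM (left) and in ppm of protein-coding TPM (right), both on linear axes from 0. Monocytes are highest on the left, at 116 to 171, and HSPCs on the right, at 2073 to 2331, with B and T cells lowest on both.

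Markers of the labelled cell types were checked on both scales. B cell markers summed to at least 209 TPM in B cells and at most 18.3 elsewhere, and NK cell markers to at least 60.7 TPM in NK cells and at most 3.83 elsewhere. T cell markers reached 16.2 to 47.4 TPM in T cells and at most 8.95 elsewhere. In ppm of protein-coding TPM, HSPC markers were highest in HSPCs (9924 to 12791, against 3981 to 6592 in monocytes) and monocyte markers in monocytes (at least 20542). In TPM, however, HSPC markers were higher in monocytes (705 to 1115) than in HSPCs (113 to 247), so that on this scale they do not set HSPCs apart.

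Among the chemokines, Ppbp was at 4.29, 9.77 and 8.05 TPM on HSPCs, at 1.53, 2.35 and 1.96 on NK cells, and at 70.7, 40.5 and 54.8 on monocytes, with at most 0.123 on B cells and listed at 0 in the 3 T cell libraries. Pf4 was at 8.33, 13.5 and 10.8 TPM on HSPCs, at 0.949, 2.41 and 2.63 on NK cells, at 20.1, 25.8 and 23.8 on monocytes, and at most 0.132 on B and T cells. Ppbp was the only member with a mean above 50 TPM, a level above which the study kept transcripts, and only on monocytes (55.3 ± 15.1, SD, n = 3). The ratio of Ppbp to Pf4 was between 1.57 and 3.51 in the monocyte libraries and between 0.515 and 0.745 in the HSPC libraries. This ratio does not depend on the protein-coding share. In NK cells it was 1.61, 0.975 and 0.744, and the 9 PBMC libraries, at 0.402 to 0.548, overlapped only the lowest HSPC library.

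Of the fibrinogen receptor, Itga2b was at 3.27, 5.81 and 5.89 TPM on HSPCs, at 1.00, 1.75 and 1.92 on NK cells, and at 12.2, 8.12 and 15.9 on monocytes. Itgb3 was at 1.41, 2.45 and 2.25 TPM on HSPCs, at 0.336, 0.814 and 1.02 on NK cells, and at 13.8, 9.00 and 12.2 on monocytes. The α chain was above the β chain in each HSPC and NK library, although the NK ranges overlapped, and on monocytes it was lower in replicates 1 and 2 and higher in replicate 3. On T cells Itga2b had the highest mean of the members (0.422 ± 0.280 TPM), although its libraries overlapped those of Itgb3 (0.101 ± 0.044). Over all 9 genes only 37.9% of the T cell TPM came from protein-coding transcripts, against 94.5% on HSPCs and 96.8% on monocytes.

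Gp1bb was at 1.51, 3.42 and 3.05 TPM on HSPCs, at 0.564, 0.837 and 0.534 on NK cells, and at 4.39, 4.60 and 8.19 on monocytes. Gp9 was at 1.09, 1.96 and 2.09 TPM on HSPCs, at 0.168, 0.714 and 0.900 on NK cells, and at 14.3, 6.70 and 11.99 on monocytes. Tubb1 was at 2.56, 4.26 and 4.22 TPM on HSPCs, at 1.90, 2.34 and 2.499 on NK cells, and at 25.8, 15.2 and 22.5 on monocytes. For all 3 genes the HSPC libraries lay between NK cells and monocytes, by the narrowest margin for Tubb1. Treml1 was at 0.765, 1.38 and 1.14 TPM on HSPCs and at 5.02, 2.64 and 8.41 on monocytes. Clec1b was at 0.436, 0.496 and 0.574 TPM on HSPCs and at 4.27, 3.43 and 5.70 on monocytes. It was the only member whose HSPC libraries overlapped those of NK cells (0.066, 0.310 and 0.465) in TPM.

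**Figure D5:**
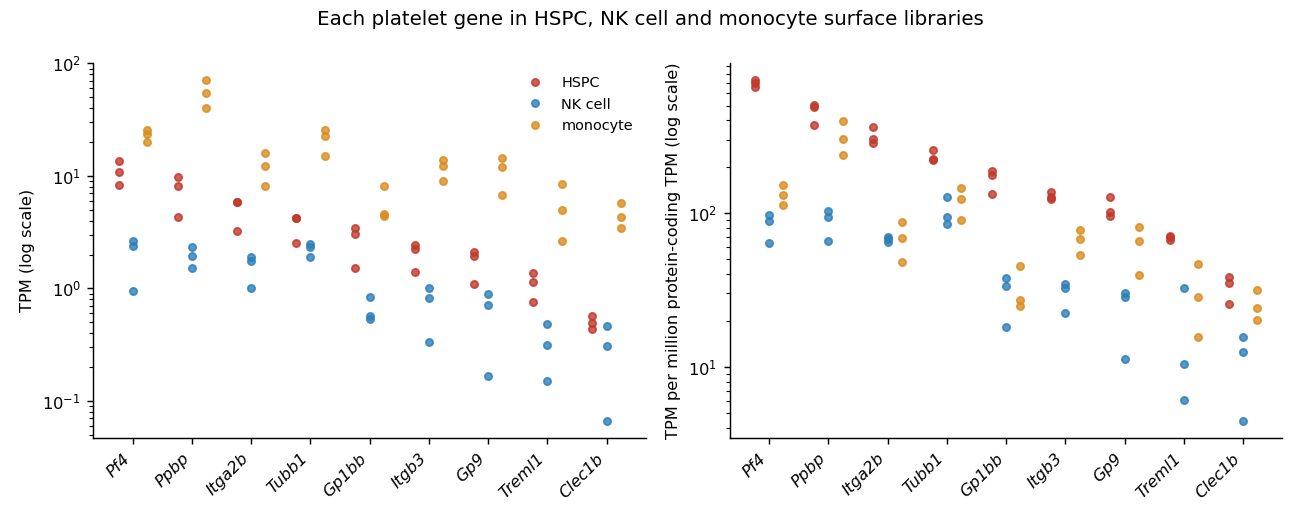
Each platelet gene in the 3 HSPC, 3 NK cell and 3 monocyte surface libraries (points), in TPM (left) and in ppm of protein-coding TPM (right), on logarithmic axes. All 9 genes are highest on monocytes on the left, whereas on the right all 3 HSPC libraries lie above all 3 monocyte libraries for 7 genes, with Ppbp and Clec1b overlapping.

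Counted in TPM, all 3 monocyte libraries lay above all 3 HSPC libraries for 9 of 9 members, as they did for 90.7% of the 13020 genes above 1 TPM in at least 3 libraries. All 3 HSPC libraries lay above all 3 NK libraries for 8 of 9 members (2.27% of genes) and above the 6 B and T cell libraries for 9 of 9 (12.6%), and NK cells lay above B and T cells for 7 of 9 (15.2%). In ppm of protein-coding TPM, HSPCs lay above NK cells for 9 of 9 members (17.7% of genes) and above monocytes for 7 of 9 (23.9%), and monocytes lay above HSPCs for 0 of 9 (41.7%). On that scale Pf4 was 5.26 times and Gp1bb 5.11 times as high on HSPCs as on monocytes by group means, Ppbp 1.46 times and Clec1b 1.31 times. As above, these values were known when the genes were chosen.

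The low end of the order was at the edge of detection. On B cells 5 and on T cells 14 of the 27 values of the 9 genes were listed at 0, and on HSPCs, NK cells and monocytes 0 were. On T cells 7 of the 9 genes were at or under 0.1 TPM in every library, and on B cells 4 were. The highest member on B cells was Itgb3 (0.408 ± 0.110 TPM, SD, n = 3). On HSPCs the order by mean TPM began with Pf4 (10.9 ± 2.56) and Ppbp (7.37 ± 2.80), on monocytes with Ppbp (55.3 ± 15.1) and Pf4 (23.2 ± 2.87), and neighbouring genes overlapped down most of both orders. The exceptions were Treml1 above Clec1b on HSPCs and Ppbp above Pf4 on monocytes.

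Of the 40 other platelet genes, 2 passed the filter of the surface comparison (above 10 TPM in at least 3 of 15 libraries), F5, coagulation factor V, and Prkar2b, a regulatory subunit of protein kinase A. Each cell type was compared with the mean of the other 4 by limma on log2(TPM + 1), with Benjamini-Hochberg adjustment over 5092 genes. The median of all genes was itself shifted, by 3.00 for monocytes, -0.39 for NK cells, -0.52 for B cells, -0.96 for HSPCs and -1.24 for T cells. Both genes passed the filter only through the 3 monocyte libraries, so that a call of higher in monocytes and lower elsewhere was set by the filter, and nothing is read from it. Monocytes were called higher for both (against 91.5% of genes called higher and 3.89% lower), and B cells and T cells lower for both (against 52.2% and 84.6% lower, with 9.43% and 7.93% higher). NK cells were called lower for F5 (against 38.0% lower and 6.15% higher). HSPCs were called lower for F5 (against 84.1% of genes) and higher for Prkar2b, by 0.27 ± 0.12 (SE, limma, adjusted p = 0.0402), against 1.39% of genes. The call of Prkar2b was lost with log2(TPM + 5) and when any B cell library, T cell replicate 1 or 2, or HSPC replicate 2 or 3 was left out. F5 was at 16.4, 11.4 and 13.01 TPM on monocytes and between 0.309 and 0.640 on HSPCs, and Prkar2b at 12.2, 12.4 and 12.3 and between 1.61 and 2.21.

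With a lower filter or the other scale more of the list could be compared. Above 1 TPM in at least 3 libraries, 32 of the 40 genes were tested and limma called 31 higher in monocytes (89.2% of genes), 3 higher and 5 lower in HSPCs (1.61% and 81.2%), and 2 higher and 19 lower in NK cells (5.65% and 39.4%). Of the 32 genes, 25 passed this filter only through the monocyte libraries and had to be high there. For limma, the ppm scale counted only protein-coding transcripts listed for all 5 cell types, in the gene and in the total. Genes had to be above 10 ppm in at least 3 libraries. In ppm of protein-coding TPM, 36 were tested and 34 were called higher and 0 lower in HSPCs (27.3% and 23.4% of genes). In NK cells 17 were called higher and 1 lower (15.3% and 7.35%), and in monocytes 25 higher (42.3%). Of these 36 genes, 7 passed only through the HSPC libraries. The median of all genes on this scale was 0.09 in HSPCs and 0.37 in monocytes, and that of the list was 2.67 in HSPCs and 1.55 in monocytes. The 5 list genes with the highest mean TPM in a cell type all had it on monocytes, F5 (13.6 ± 2.56), Vwf (12.6 ± 5.51), Prkar2b (12.3 ± 0.10), Ptgs1 (10.5 ± 3.24) and P2ry1 (8.20 ± 2.06, SD, n = 3). In ppm of protein-coding TPM, Vwf, the von Willebrand factor, was higher on HSPCs (272 ± 8.49) than on monocytes (71.3 ± 29.5), and F5 was lower there (32.1 ± 4.63 against 77.1 ± 13.5).

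Markers of other cells stood beside these values. Erythroid markers summed to between 20.0 and 41.4 TPM on HSPCs, and to 65.8, 13.1 and 26.3 on the 3 NK cell libraries, where the sum of the 9 platelet genes was lowest in TPM, but not in ppm of protein-coding TPM, in the library with the most erythroid RNA. Neutrophil markers summed to at least 1710 TPM on monocytes and 13.7 to 66.1 on HSPCs. Megakaryocyte transcription factors summed to 128 to 144 TPM on monocytes, 19.3 to 28.1 on HSPCs and 14.7 to 42.5 on NK cells. The order turned on the other scale, where they summed to 1458 to 1695 in ppm of protein-coding TPM on HSPCs, to 987 to 1437 on NK cells and to at most 793 on monocytes. On the ppm scale, limma called 5 of 7 tested erythroid markers (median 2.89), 10 of 11 neutrophil markers (2.497), 5 of 8 monocyte markers (1.11), 5 of 5 basophil and mast cell markers (4.24) and the 1 endothelial marker tested, Egfl7 (3.54), higher in HSPCs, beside the median of 2.67 of the other platelet genes on the same log2 scale. Of these, 1 erythroid marker, 3 basophil and mast cell markers and Egfl7 passed the filter only through the HSPC libraries. Basophil and mast cell markers summed to 852 to 888 on that scale in HSPCs and to at most 112 in any other library. Endothelial markers summed to at most 4.40 TPM in any library. Their part in the levels of the platelet genes was not tested.

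Over the 15 surface libraries and the genes above 1 TPM in at least 3 of them, the genes most like the members in log2(TPM + 1) included Ier3 (r = 0.989), Gas2l1 (0.987), Parvb (0.986), Ccna2 (0.986), Cpne2 (0.985), H2ac6 (0.984), Prkar2b (0.984) and Cd34 (0.983). Since most genes were highest in monocytes, the median r over all genes was 0.825. Without the monocyte libraries, a choice made after seeing the data, the 10 most alike over 12 libraries were Thbs1 (0.998), P2rx1 (0.996), Gp5 (0.995), Gp1ba (0.995), Alox12 (0.993), Gas2l1 (0.992), Sort1 (0.991), F5 (0.991), Fhl1 (0.990) and Apba1 (0.990), of which 5 were on the list of other platelet genes and Thbs1 on that of platelet genes shared with leukocytes. Parvb and Fhl1 each stood among the 10 in PBMCs and in one of the surface sets.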

How the data were processed

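PBMC values were expected counts per gene that the authors deposited from RSEM. Its version and the strand setting are not given in the sources used here. The paper gives STAR parameters for alignment to a human reference, without stating whether they apply to the PBMC libraries. The submitters' notes name Trim Galore, STAR, featureCounts and RSEM, with builds mm10 and hg38. They were rounded to whole numbers, and CPM used TMM library sizes. Surface values were TPM per transcript, deposited by the authors from Kallisto after trimming and removal of duplicates with the same barcode, and were summed by gene name over each table. The tests used the 102001 transcripts listed in all 5 tables. TPM give shares of a library and keep no depth, and sum to 1000000.

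One fit of the 9 PBMC libraries used edgeR 4.0.16 (quasi-likelihood, default expression filter) in R 4.3.3, and one fit of the 15 surface libraries used limma 3.58.1 with a trend on log2(TPM + 1), which understates the change of low genes. Calls needed a Benjamini-Hochberg adjusted p below 0.05 over all genes tested. Both procedures were tested on simulated data, and the outcome is not reported here. The members and lists were chosen with earlier results of these data known, so that members received no test. Of the other platelet genes, those called were named, at most 5 per direction in PBMCs and 3 on the surface, with the 5 of highest surface mean. Alternatives used DESeq2 1.42.0, other scalings, filters and pseudocounts, a replicate block and each library left out. Values of 2 genes are not reported here.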

Additional observations from a re-analysis of the deposited data

How the results depend on the processing

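Without any filter on low counts, 8 other platelet genes were called lower in Y than in ct and 1 higher in Y than in WT. Over the 29571 genes of that fit, 124 and 132 were called so. Between Y and WT, DESeq2 and the replicate block gave 0 calls each and the 6 libraries alone gave 4. Over all genes tested, DESeq2 called 34 of 7142 higher, the replicate block 46 of 11635 and the 6 libraries 78 of 11088. The replicate block gave 16 lower calls in WT and 2 in Y against ct, against 159 and 41 of all 11635 genes. Deviations of same-numbered libraries correlated between -0.06 and 0.06 in PBMCs, where they share only a number. On the surface they did so between -0.33 and 0.56. The 3 pairs of T cell and NK cell libraries, both from spleen, were at 0.557, 0.272 and 0.461. Whether these share more than a number was not tested. The B cell libraries, also from spleen, were at -0.328, -0.161 and -0.0799 with T cells and at -0.207, 0.028 and -0.179 with NK cells. On the surface the replicate block changed no call count. Leaving out 1 library gave 13 to 17 lower calls in WT and 1 to 2 in Y against ct, and 0 to 3 higher calls in Y against WT. Over the 11900 to 12081 genes tested in those fits, the calls were 111 to 171, 17 to 51 and 26 to 65. The summed members moved from -0.63 to -0.70 in WT against ct and from 0.25 to 0.36 in Y against WT with library totals, and with deposited TPM to -0.55 in Y against ct and 0.072 in Y against WT. Member fold changes kept their sign in the fits that varied the tool, size factors, filter, block or libraries (126 per comparison), but with deposited TPM Gp9 and Treml1 turned lower in Y than in WT.

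On the surface, above 1 TPM in 3 libraries limma called 31 list genes higher and 1 lower for monocytes, 3 and 5 for HSPCs, 2 and 19 for NK cells, 1 and 31 for T cells, and 1 and 30 for B cells. In ppm of protein-coding TPM the counts were 25 and 2 for monocytes, 34 and 0 for HSPCs, 17 and 1 for NK cells, 2 and 32 for T cells, and 2 and 33 for B cells. Of the 32 genes tested above 1 TPM, 25 passed only through the monocyte libraries, so that lower calls elsewhere were largely set by the filter. With the main filter 84.6% of all genes were called lower in T cells and 52.2% in B cells. Above 1 TPM, 10851 of all 13020 genes were called lower and 654 higher in T cells, and 7045 lower and 1090 higher in B cells. In ppm of protein-coding TPM, 4292 of all 10189 genes were called lower and 1445 higher in T cells. In B cells 3383 were called lower and 2024 higher. Nothing is read from the T and B cell counts. With log2(TPM + 5) HSPCs had 0 higher calls and NK cells 2 lower, and with log2(TPM + 0.1) HSPCs had 0 lower calls. Leaving out 1 library of the other 4 cell types gave 0 to 1 higher calls in HSPCs and 1 to 2 lower in NK cells, while without monocyte libraries or above 50 TPM no list gene could be tested. Protein-coding transcripts alone gave member sums of 0.709 TPM in B cells and 0.230 in T cells. In ppm of protein-coding TPM the sums were 2211 for HSPCs, 850 for monocytes, 451 for NK cells, 50.7 for T cells and 44.4 for B cells. Leaving out 1 library gave sums of 1.01 to 1.08 TPM for B cells, 0.461 to 0.817 for T cells, 30.9 to 40.5 for HSPCs, 9.33 to 11.95 for NK cells and 139.7 to 167 for monocytes. The causes of these shifts were not tested, apart from the number of genes each filter admits. The B and T cell values lie near 0, and their depth is unknown.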
